A study of Mus musculus with 186 samples.

Results

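Back skin of bleomycin-injected mice was compared with back skin of vehicle-injected mice after 7 days, within a study of a systemic bleomycin model of scleroderma, a disease that hardens skin and internal organs. The 15 libraries were all those that the labels placed in the day 7 skin groups, 7 of bleomycin and 8 of phosphate-buffered saline (PBS), out of 93 skin and 93 lung libraries in all. Bleomycin skin came from female C57BL/6 mice of about 12 weeks given bleomycin under the skin at 10 mg/kg/day, and PBS skin from mice of the same strain, sex and age given PBS alone. All were shaved between the shoulder blades and injected there 5 times per week from day 0, so that shaving and repeated needle injury were shared by both groups. None had received an oral drug or its vehicle, which began on day 12 in later groups. Total RNA of a punch biopsy was sequenced with strand kept after ribosomal RNA was removed, and epidermis, hair follicles, dermis, fat and muscle were read as a mixture. Used beside them were skin of day 14 (8 bleomycin, 8 PBS) and lung of day 7 (7 bleomycin, 8 PBS) of the same treatments.

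Bleomycin is a glycopeptide antibiotic that binds iron and cleaves DNA. Cells answer such breaks through the p53 pathway, which halts division or triggers death, and through type I interferon genes when DNA reaches the cytosol. The enzyme bleomycin hydrolase inactivates the drug and is known to be low in lung and skin. In injured skin, keratinocytes switch to wound keratins, immune cells enter the dermis, and fibroblasts may become matrix-producing myofibroblasts. These statements are background, not results.

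Total expected counts ran from 16.14 to 20.87 M in bleomycin skins and from 15.06 to 27.45 M in PBS skins. Levels are CPM, counts scaled to library size with TMM factors, and 3 CPM values in a row are the lowest, the median and the highest library of a group. Values after "log2" are bleomycin minus PBS fold changes ± standard error (SE), from a quasi-likelihood fit in edgeR with plate as a term, and adjusted p-values are those of that fit after Benjamini-Hochberg adjustment over all genes tested. Genes said to rise or fall passed 0.05. The labels do not say that replicates were separate mice, so that p-values measure the spread between these samples. Because the skins were bulk samples, fewer cells of a type and less RNA per cell cannot be told apart.

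Some libraries stood apart. The hair keratin list summed to 11472 CPM in bleomycin R3 and to 9981 CPM in PBS R5, and to between 21.2 and 47.2 CPM in the other 13 skins. The same pair was highest in its group for the melanocyte list (711 and 336 CPM) and the cell cycle list (2540 and 1648 CPM). Skeletal muscle markers summed to 1308 to 5065 CPM in bleomycin skins and to 5110 to 23878 CPM in PBS skins, highest in PBS R8. Krt14, a keratin that marks skin epithelium, was at 946 CPM or above in every skin. Ribosomal protein genes made up 3.39% to 3.90% of counts in bleomycin skins and 2.54% to 2.88% in PBS skins. The part of these in the results was not tested, other than by leaving out the hair-rich pair or adding the muscle level as a term. The summed muscle level did not overlap between the groups, so that the muscle term takes up part of the treatment effect. Calls lost or gained with it cannot be assigned to muscle or to treatment.

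Bleomycin skin differed from PBS skin in 7306 of 15825 genes tested (46.2%). Of these, 4035 rose (25.5%) and 3271 fell (20.7%), with a median log2 of 0.02 over all genes. At least 2-fold, 886 genes rose (5.6%) and 563 fell (3.56%). The bleomycin and PBS libraries did not overlap at all for 1727 genes (10.9%). In 7039 of the called genes the sign matched between the plates given in the labels. The calls came from both plates together, so that such a match was largely built in and is no replication. The share of rises among calls was 55.2%, 46.9% without the hair-rich pair, and below that of falls when any 1 of 11 of the 15 libraries was left out. Counts of list members are to be read against these shares of all genes.

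Keratins of wounded epidermis were among the largest rises. Krt6b, a keratin that interfollicular epidermis makes after injury, had 121, 395 and 2831 CPM in bleomycin skins, against 0.617, 2.02 and 20.1 CPM in PBS skins (log2 7.63 ± 1.43, adjusted p = 1.1e-05). Krt16, the partner keratin of the K6 proteins, had 231, 429 and 2046 CPM in bleomycin skins, against 6.86, 13.8 and 76.1 CPM in PBS skins (log2 5.13 ± 0.78, adjusted p = 1.8e-07). Krt6a, already present in the hair follicle of resting skin, had 423, 801 and 3474 CPM in bleomycin skins, against 105, 136 and 227 CPM in PBS skins (log2 3.08 ± 0.56, adjusted p = 7.4e-06). For each of these keratins every bleomycin skin lay above every PBS skin. Bleomycin R2 and R6 were the highest for all 3, and PBS R7 was the highest PBS skin.

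The wound and hyperproliferative epidermis list, which holds these keratins, had 11 of 14 tested members rise and none fall, with a median log2 of 2.25. The summed level of the list was 2275, 3480.2 and 10876 CPM in bleomycin skins, against 760.4, 1095 and 1650.1 CPM in PBS skins. Small proline-rich proteins, which are cross-linked into the cornified envelope, were in the same list. Sprr1b had 9.45, 24.97 and 104 CPM in bleomycin skins, against 0.349, 1.33 and 4.93 CPM in PBS skins (log2 4.18 ± 0.75, adjusted p = 4.8e-06). Sprr2d had 0.444, 2.01 and 22.8 CPM in bleomycin skins, against 0, 0.0537 and 1.39 CPM in PBS skins (log2 5.23 ± 0.88, adjusted p = 1.4e-06). The groups were apart for Sprr1b, and for Sprr2d 1 PBS skin reached into the bleomycin range. Sprr2a1 and Sprr2a3, near-identical copies whose reads may be split, had log2 values of 4.95 ± 1.01 and 4.89 ± 0.62, and 6 of 7 bleomycin skins lay above all PBS skins for both.

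Several protease inhibitors rose beside the keratins, and which cells made them cannot be told in bulk skin. Stfa3, a stefin that blocks cysteine proteases, had 183, 235 and 653 CPM in bleomycin skins, against 2.03, 4.60 and 26.1 CPM in PBS skins (log2 5.67 ± 0.69, adjusted p = 3.9e-10). Its relatives Stfa1 and Stfa2 had log2 values of 5.68 ± 0.81 and 5.65 ± 0.87. Serpinb3a, a serpin of squamous epithelium, had 8.83, 14.4 and 63.3 CPM in bleomycin skins, against 0.114, 0.518 and 3.80 CPM in PBS skins (log2 4.94 ± 0.59, adjusted p = 2.1e-10). No PBS skin reached the bleomycin range for any of these 4. The stefins and Serpinb3a belong to families of similar copies, so that their reads may be assigned unevenly.

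**Figure D1:**
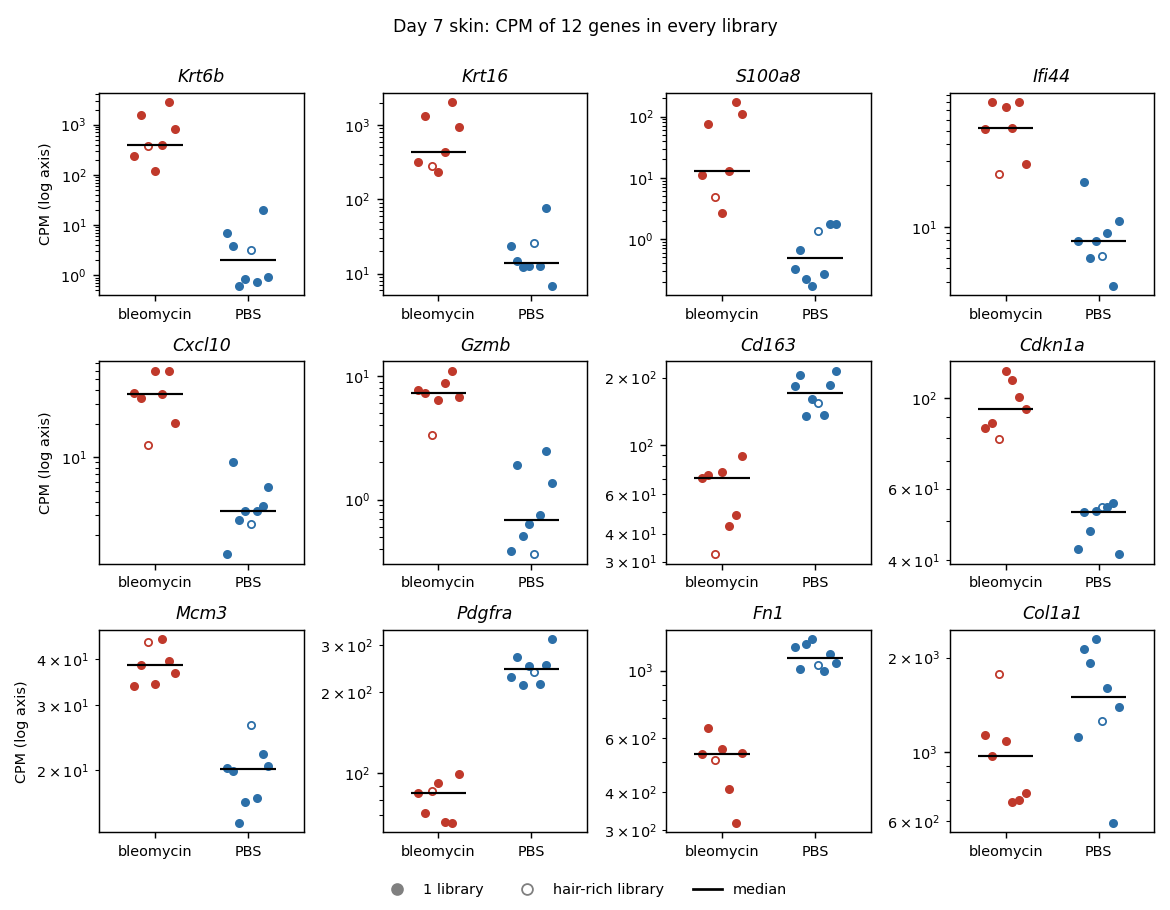
Level of named genes in each day 7 skin library (log10 axis, CPM), with 7 bleomycin skins left of 8 PBS skins in each panel and bars at the group medians. Krt6b, S100a8 and Cxcl10 lie higher in every bleomycin skin than in any PBS skin, and Pdgfra lies lower in every bleomycin skin.

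Differentiated layers of the epidermis moved in both directions. Of 26 tested members of the differentiation and cornified envelope list, 8 rose and 3 fell, with a median log2 of 0.25. Lce3c, a late envelope protein tied to barrier repair, had 4.70, 9.50 and 29.7 CPM in bleomycin skins, against 0.630, 0.938 and 4.04 CPM in PBS skins (log2 2.96 ± 0.54, adjusted p = 6.0e-06). Casp14, the protease that processes filaggrin, had 75.2, 133 and 191 CPM in bleomycin skins, against 27.0, 41.0 and 57.8 CPM in PBS skins (log2 1.77 ± 0.33, adjusted p = 7.9e-06). Klk7, a protease of shedding, rose too (log2 0.93 ± 0.18). Flg2, a filaggrin relative of the granular layer, went the other way, with 2128, 2315 and 3032 CPM in bleomycin skins, against 3766, 5873 and 6635 CPM in PBS skins (log2 -1.18 ± 0.21, adjusted p = 3.2e-06). Dsg1a, a desmosomal cadherin, fell by less (log2 -0.40 ± 0.11). For these 5 genes the groups did not overlap.

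Basal keratinocyte markers were as divided, with 3 of 10 higher and 3 lower. Krt14, the keratin of basal cells, had 2125, 3040.3 and 5216 CPM in bleomycin skins, against 946, 1521 and 1915 CPM in PBS skins (log2 1.06 ± 0.21, adjusted p = 3.3e-05), lowest in PBS R8. Sfn, an adaptor protein of stratified epithelium, rose (log2 0.70 ± 0.23, adjusted p = 0.0087), with 3 of 7 bleomycin skins above all PBS skins. Krt15, a keratin of bulge stem cells and resting basal cells, had 490.1, 646 and 856 CPM in bleomycin skins, against 809, 1099 and 1544 CPM in PBS skins (log2 -0.76 ± 0.19, adjusted p = 8.0e-04). Dst, which anchors keratin to hemidesmosomes, also fell (log2 -0.58 ± 0.15).

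Genes induced by interferon rose as a whole list: 28 of 28 tested members were higher, with a median log2 of 1.81, also without the hair-rich pair and with the muscle term. Their summed level was 1608, 3358 and 4002 CPM in bleomycin skins, against 732, 933 and 1803 CPM in PBS skins. The sums overlapped, since PBS R2 had the highest PBS value and bleomycin R3 the lowest bleomycin value. Irf9, a DNA-binding factor of the interferon response, had 82.1, 147 and 160.5 CPM in bleomycin skins, against 51.1, 61.0 and 77.2 CPM in PBS skins (log2 1.14 ± 0.13, adjusted p = 1.5e-10). Ifi44, an induced cytoplasmic protein, had 24.1, 52.0 and 80.7 CPM in bleomycin skins, against 3.74, 7.93 and 21.3 CPM in PBS skins (log2 2.63 ± 0.33, adjusted p = 1.1e-09). Irf9 and Ifi44 did not overlap between the groups. Oas1a, which senses double-stranded RNA and makes the activator of RNase L, had 40.8, 92.9 and 119.8 CPM in bleomycin skins, against 9.46, 15.03 and 46.5 CPM in PBS skins (log2 2.23 ± 0.28, adjusted p = 1.1e-09), and bleomycin R3 lay below PBS R2.

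The promoters of these genes were read because they moved together. In RefSeq windows from 250 bases before to 50 after a gene's start (GRCm38.p6), the interferon-response letters TTTC, any 2 bases and TTTC again were searched on both strands. They were found for 13 of 21 members with a window (61.9%), against 3.96% of all tested genes with a window and 3.99% of all 27025 genes in the table. A match describes these letters alone. Stretches around the matches are given for Oas1a, Isg15, Cxcl10, Stat2 and Bst2, all of which were chosen for their matches. Matched letters are in capitals, and each stretch is read 5′ to 3′ along the strand of its gene.
Oas1a (chr5:120907526-120907570, minus strand): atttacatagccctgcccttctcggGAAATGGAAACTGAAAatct
Isg15 (chr4:156200850-156200921, minus strand): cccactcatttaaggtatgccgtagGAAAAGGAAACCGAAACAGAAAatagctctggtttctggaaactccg
Cxcl10 (chr5:92349068-92349127, minus strand): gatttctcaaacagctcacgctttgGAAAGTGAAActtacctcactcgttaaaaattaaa
Stat2 (chr10:128270251-128270310, plus strand): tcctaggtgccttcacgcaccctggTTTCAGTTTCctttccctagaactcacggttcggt
Bst2 (chr8:71537562-71537627, minus strand): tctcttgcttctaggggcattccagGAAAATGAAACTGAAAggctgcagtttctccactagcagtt
The sequences on the minus strand carry the letters in their reverse form, GAAA, 2 bases and GAAA. In Oas1a, Isg15 and Bst2 matches overlap in a run of GAAA repeats, and the last match ends 4 bases before the start of Oas1a, 56 before that of Isg15 and 114 before that of Bst2. In Cxcl10 and Stat2 there was a single match, 203 and 212 bases before the start. Isg15, a ubiquitin-like modifier, had 13.6, 31.7 and 53.03 CPM in bleomycin skins, against 1.51, 4.31 and 12.6 CPM in PBS skins (log2 2.72 ± 0.35). Bst2, which tethers virus particles to the cell, had 39.8, 73.8 and 104 CPM in bleomycin skins, against 11.3, 19.8 and 61.9 CPM in PBS skins (log2 1.66 ± 0.25), and Stat2 had a log2 of 1.28 ± 0.18.

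**Figure D2:**
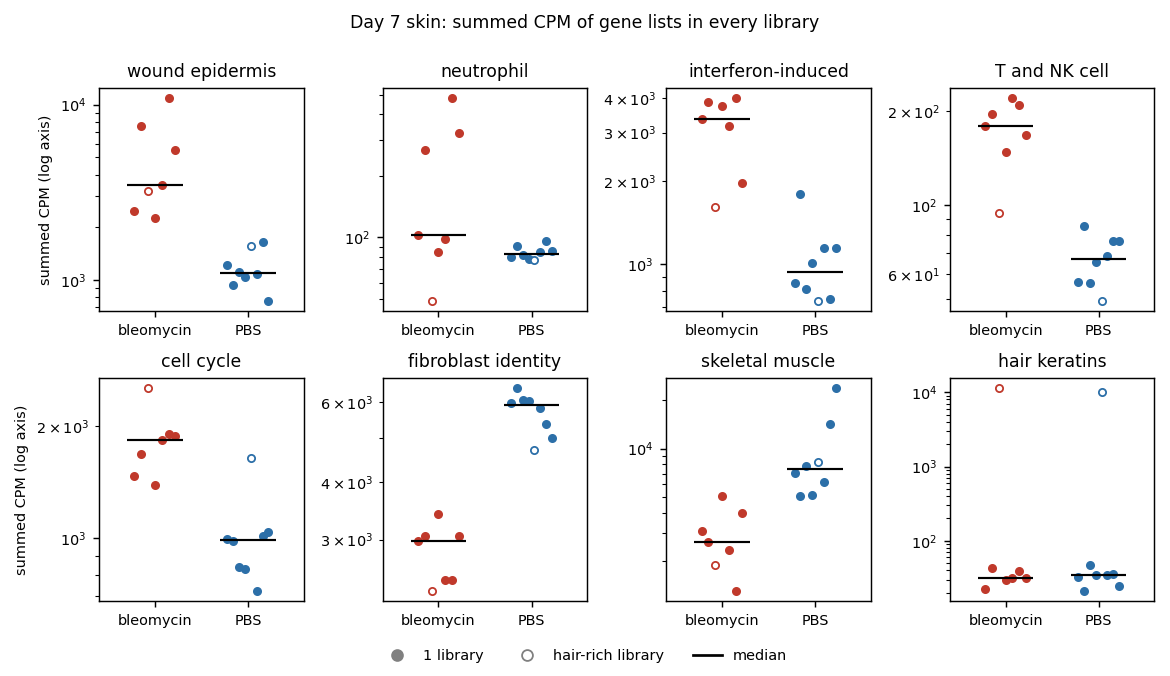
Summed CPM of gene lists in each day 7 skin library (log10 axis), with 7 bleomycin skins left of 8 PBS skins and bars at the group medians. Hair keratins reach 11472 CPM in bleomycin R3 and 9981 CPM in PBS R5, while fibroblast markers are lower and T and NK cell markers higher in every bleomycin skin than in any PBS skin.

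Transcripts of lymphocytes were higher in bleomycin skin. Of 20 tested T and NK cell markers 18 rose and none fell, with a median log2 of 1.77, and the count stayed at 18 without the hair-rich pair. Their summed level was 94.6, 179 and 220.0 CPM in bleomycin skins, against 49.2, 67.1 and 85.8 CPM in PBS skins, without overlap. Cd5, a brake on the T cell receptor, had 3.78, 6.25 and 9.54 CPM in bleomycin skins, against 1.22, 2.07 and 2.35 CPM in PBS skins (log2 1.79 ± 0.18, adjusted p = 3.8e-13). Lck, the kinase that starts receptor signalling, had 6.28, 9.76 and 12.4 CPM in bleomycin skins, against 2.63, 3.37 and 4.28 CPM in PBS skins (log2 1.56 ± 0.19, adjusted p = 3.0e-10). Gzmb, the protease of cytotoxic granules, had 3.33, 7.26 and 11.1 CPM in bleomycin skins, against 0.360, 0.689 and 2.47 CPM in PBS skins (log2 2.82 ± 0.37, adjusted p = 3.0e-09). These 3 were apart in all libraries. Il2ra, the high-affinity chain of the interleukin-2 receptor, rose (log2 2.00 ± 0.27, adjusted p = 5.2e-09), and bleomycin R3 lay within the PBS range. B cell and plasma cell transcripts were few, with 6 of 10 tested and 3 of them higher. Cd22, a receptor of B cells, had 3.72, 4.70 and 7.26 CPM in bleomycin skins, against 0.108, 0.384 and 1.09 CPM in PBS skins (log2 3.52 ± 0.46, adjusted p = 3.1e-09), and Cd79b, a chain of the B cell receptor, had a log2 of 1.35 ± 0.28.

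Macrophage markers were split. Of 30, 19 rose and 4 fell, with a median log2 of 0.64, and 16 rose without the hair-rich pair. Fcgr1, the high-affinity IgG receptor of monocytes and macrophages, had 26.2, 61.3 and 66.5 CPM in bleomycin skins, against 5.90, 7.99 and 24.7 CPM in PBS skins (log2 2.25 ± 0.30, adjusted p = 5.8e-09). Ctss, a lysosomal protease, had 294, 467 and 660.1 CPM in bleomycin skins, against 116, 159.96 and 237 CPM in PBS skins (log2 1.499 ± 0.23, adjusted p = 2.5e-07). Ms4a7, a membrane protein of macrophages, rose without overlap (log2 1.56 ± 0.25, adjusted p = 6.0e-07). Ccr2, the chemokine receptor that brings monocytes from blood, had 135, 362 and 418 CPM in bleomycin skins, against 95.6, 104 and 209 CPM in PBS skins (log2 1.39 ± 0.23, adjusted p = 8.8e-07), and bleomycin R3 alone lay inside the PBS range. Markers of resident macrophages were among those that fell. Cd163, a haemoglobin scavenger receptor, had 32.3, 70.7 and 89.5 CPM in bleomycin skins, against 134, 172 and 215 CPM in PBS skins (log2 -1.47 ± 0.26, adjusted p = 4.0e-06), with no overlap. Retnla, a secreted product of macrophages under type 2 cytokines, had 6.83, 27.7 and 42.9 CPM in bleomycin skins, against 17.2, 117 and 195 CPM in PBS skins (log2 -2.09 ± 0.59, adjusted p = 0.0025). PBS R2 and R6 were far below the other 6 PBS skins for Retnla and inside the bleomycin range.

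Neutrophil markers held the largest rises among immune lists, but at low levels. Of 16, 11 were tested, 8 rose and 1 fell, with a median log2 of 1.91, and Ly6g, Mpo, Elane, Ngp and Camp, the granule and surface genes that define the cell, were too low to test. S100a8, a calcium-binding protein of neutrophils that stressed keratinocytes also make, had 2.62, 13.0 and 173 CPM in bleomycin skins, against 0.172, 0.488 and 1.75 CPM in PBS skins (log2 6.05 ± 0.99, adjusted p = 7.6e-07). S100a9, its partner, had 4.61, 15.7 and 212 CPM in bleomycin skins, against 0.160, 1.04 and 3.26 CPM in PBS skins (log2 5.80 ± 0.93, adjusted p = 5.4e-07). Both were highest in bleomycin R2, R6 and R7, as were Krt6b and Krt16. Csf3r, the receptor of the neutrophil growth factor G-CSF, had 11.1, 18.7 and 22.3 CPM in bleomycin skins, against 3.09, 4.39 and 7.23 CPM in PBS skins (log2 1.91 ± 0.32, adjusted p = 1.2e-06). Il1r2, a decoy receptor for interleukin-1, fell without overlap (log2 -1.24 ± 0.21, adjusted p = 1.1e-06). Summed over the list, bleomycin skins held 48.8, 103 and 480 CPM, against 77.7, 83.4 and 96.6 CPM in PBS skins, and bleomycin R3 lay below all PBS skins.

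Antigen presentation and dendritic cell genes had 11 of 20 rise and none fall, and 9 without the hair-rich pair. Ccr7, the receptor that takes dendritic cells and naive T cells to lymph nodes, had 3.48, 6.20 and 12.7 CPM in bleomycin skins, against 0.748, 1.31 and 2.63 CPM in PBS skins (log2 2.36 ± 0.32, adjusted p = 5.4e-09). The immunoproteasome subunits Psmb9 and Psmb8, which cut peptides for MHC class I, had log2 values of 1.23 ± 0.19 and 1.18 ± 0.20. Tap1, the peptide transporter, rose as well (log2 0.93 ± 0.15). Mast cell genes showed no common direction, with 2 of 12 higher and 1 lower. Fcer1a, the IgE-binding chain, had 5.68, 8.64 and 13.3 CPM in bleomycin skins, against 1.27, 3.25 and 4.27 CPM in PBS skins (log2 1.52 ± 0.28, adjusted p = 7.3e-06). Ms4a2, the beta chain of the same receptor, had a smaller rise (log2 0.62 ± 0.22, adjusted p = 0.015), and Mrgprb2, a mast cell receptor for basic peptides, fell (log2 -0.54 ± 0.19, adjusted p = 0.016).

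Of the chemokines 13 of 28 rose and 2 fell, with a median log2 of 0.80. Cxcl10, which attracts activated T cells and is induced by interferon, had 12.9, 36.6 and 59.9 CPM in bleomycin skins, against 1.34, 3.32 and 9.07 CPM in PBS skins (log2 3.24 ± 0.42, adjusted p = 2.4e-09). Ccl12, a mouse monocyte attractant, had 5.39, 11.7 and 15.9 CPM in bleomycin skins, against 0.561, 1.08 and 4.02 CPM in PBS skins (log2 2.87 ± 0.38, adjusted p = 3.6e-09). Ccl5, made by T cells and macrophages, had 2.17, 5.10 and 9.25 CPM in bleomycin skins, against 0.505, 1.05 and 2.10 CPM in PBS skins (log2 2.26 ± 0.38, adjusted p = 1.7e-06). For these 3 the groups were apart. Ccl2, the main ligand of Ccr2, had 13.4, 35.4 and 59.6 CPM in bleomycin skins, against 7.10, 9.82 and 38.2 CPM in PBS skins (log2 1.45 ± 0.34, adjusted p = 3.6e-04), and PBS R2 stood at the top of its group. Cxcl12, the constitutive chemokine of stromal cells, had 47.9, 60.5 and 75.3 CPM in bleomycin skins, against 104, 117 and 129 CPM in PBS skins (log2 -0.91 ± 0.16, adjusted p = 4.5e-06). Ccl24, an eosinophil attractant of resident macrophages, fell too (log2 -1.92 ± 0.38, adjusted p = 3.0e-05), and neither overlapped.

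Among inflammatory cytokines and effectors 9 of 23 rose and 1 fell, and 6 rose without the hair-rich pair. The fall was lost without that pair, with the muscle term, and without PBS R1 or R7. Saa3, an acute-phase protein made in tissues, had 2.07, 9.00 and 21.2 CPM in bleomycin skins, against 0.0572, 0.164 and 1.05 CPM in PBS skins (log2 5.04 ± 0.93, adjusted p = 8.7e-06). Il18, which keratinocytes store, had 36.4, 44.9 and 62.4 CPM in bleomycin skins, against 20.1, 24.3 and 30.1 CPM in PBS skins (log2 0.90 ± 0.19, adjusted p = 7.2e-05). Tnf, a central inflammatory cytokine, was low and had 4.50, 7.32 and 11.8 CPM in bleomycin skins, against 1.88, 3.45 and 4.73 CPM in PBS skins (log2 1.14 ± 0.30, adjusted p = 0.0013). Il24, an interleukin-10 relative made by wound keratinocytes, rose in the fit (log2 3.98 ± 1.02, adjusted p = 9.6e-04) but was above all PBS skins in bleomycin R2, R6 and R7 alone. Complement genes were mixed, with 7 of 15 higher and 4 lower, and 4 higher without any 1 of bleomycin R1 and R6 and PBS R1 and R7. Cfb, the protease of the alternative pathway, had 114, 203 and 244 CPM in bleomycin skins, against 53.3, 71.0 and 161 CPM in PBS skins (log2 1.25 ± 0.20, adjusted p = 6.0e-07), while the receptor C3ar1 had a log2 of 1.39 ± 0.24. C1s1, a protease of the classical pathway that fibroblasts make, fell (log2 -0.59 ± 0.16, adjusted p = 0.0013), and C1qb, a subunit made by macrophages, rose (log2 0.77 ± 0.19, adjusted p = 5.8e-04).

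Targets of p53 rose. Of 35, 25 were higher and 2 lower, with a median log2 of 0.50, and without the hair-rich pair 24 and 4. Without any 1 of bleomycin R3 and R4 and PBS R4 and R6, 4 were lower. Cdkn1a, the p21 inhibitor of cyclin-dependent kinases, had 79.6, 94.3 and 117 CPM in bleomycin skins, against 41.4, 52.6 and 55.4 CPM in PBS skins (log2 0.95 ± 0.09, adjusted p = 7.0e-14). Pmaip1, the death-promoting protein Noxa, had 16.1, 29.4 and 40.6 CPM in bleomycin skins, against 7.80, 9.95 and 11.3 CPM in PBS skins (log2 1.55 ± 0.14, adjusted p = 1.4e-14). Mdm2, the ubiquitin ligase that degrades p53, had 87.9, 111 and 129 CPM in bleomycin skins, against 67.6, 72.3 and 79.7 CPM in PBS skins (log2 0.60 ± 0.06, adjusted p = 1.6e-14). Bax, which permeabilises mitochondria, had 24.2, 30.7 and 33.8 CPM in bleomycin skins, against 11.0, 13.7 and 17.5 CPM in PBS skins (log2 1.11 ± 0.11, adjusted p = 1.2e-13). No PBS skin reached the bleomycin range of any of these 4. Gdf15, a stress cytokine, was low and overlapped, with 1.52, 1.89 and 6.45 CPM in bleomycin skins, against 0.108, 0.328 and 4.73 CPM in PBS skins (log2 1.34 ± 0.46, adjusted p = 0.014), and its call was lost without bleomycin R1 (log2 1.04, adjusted p = 0.069). Rrm2b, a ribonucleotide reductase subunit, and Xpc, a damage sensor of nucleotide excision repair, fell slightly (log2 -0.27 ± 0.07 and -0.18 ± 0.06). The letters of a full p53 element without a spacer were found for 0 of 21 higher members with a window. They were found for 0.00822% of tested genes with a window. Letters so rare would be missing from so few genes in any case, so that the 0 says nothing about p53 sites.

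Genes of the cell cycle rose beside the inhibitor p21. Of 35, 33 were higher and none lower, with a median log2 of 0.97, and 32 were higher without the hair-rich pair, whose sums led both groups. Their summed level was 1393, 1841 and 2540 CPM in bleomycin skins, against 723, 992 and 1648 CPM in PBS skins. Pcna, the sliding clamp of replication, had 90.5, 99.4 and 119 CPM in bleomycin skins, against 56.2, 62.6 and 74.0 CPM in PBS skins (log2 0.64 ± 0.13, adjusted p = 2.7e-05). Mcm3 and Mcm4, subunits of the replicative helicase, had log2 values of 0.98 ± 0.20 and 0.75 ± 0.15, and the groups did not overlap for these 3. Rrm2, which makes deoxynucleotides, had 20.2, 31.8 and 41.0 CPM in bleomycin skins, against 10.5, 14.9 and 22.8 CPM in PBS skins (log2 1.06 ± 0.21, adjusted p = 2.8e-05). Mki67, the proliferation marker, had 297, 414 and 588 CPM in bleomycin skins, against 145, 196 and 436 CPM in PBS skins (log2 0.87 ± 0.26, adjusted p = 0.0045), and PBS R5, the hair-rich PBS skin, lay amid the bleomycin skins. Inhibitors of the cycle were split, with 4 of 8 higher and 2 lower, and a median log2 of 0.34. Without the hair-rich pair 3 were higher and 3 lower. Cdkn1c, the p57 inhibitor, had 2.46, 3.56 and 6.78 CPM in bleomycin skins, against 3.82, 7.96 and 13.7 CPM in PBS skins (log2 -1.08 ± 0.26, adjusted p = 5.0e-04), and Cdkn1b, the p27 inhibitor, fell without overlap (log2 -0.30 ± 0.07, adjusted p = 5.6e-04).

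In the promoter windows of higher cell cycle members, the E2F letters TTTCGCGC or TTTGGCGC were found on either strand for 5 of 26 (19.2%), against 1.57% of tested genes with a window. The letters TTTGAA, which hold the core of the CHR element of mitotic genes, were found for 13 of 26 (50%), against 15.2%. Stretches with E2F letters in capitals are given for Mcm6, Mcm5 and Cdk1, which were chosen for their matches, again along the strand of each gene.
Mcm6 (chr1:128359720-128359840, minus strand): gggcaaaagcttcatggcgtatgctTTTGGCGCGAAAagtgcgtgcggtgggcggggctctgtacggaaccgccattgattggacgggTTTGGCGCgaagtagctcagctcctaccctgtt
Mcm5 (chr8:75109331-75109392, plus strand): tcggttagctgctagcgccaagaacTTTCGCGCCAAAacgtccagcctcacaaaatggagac
Cdk1 (chr10:69353011-69353068, minus strand): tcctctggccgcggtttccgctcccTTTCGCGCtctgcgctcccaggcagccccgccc
Mcm6 has matches at 2 places, and in Mcm6 and Mcm5 matches on both strands overlap, while Cdk1 has a single match. Mcm6 and Mcm5 are helicase subunits and Cdk1 is the kinase of mitotic entry. Their log2 values were 0.68 ± 0.15, 1.17 ± 0.26 and 1.18 ± 0.28.

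Of 23 DNA repair genes, 12 were higher and 1 lower, and 7 were higher with the muscle term. Chek2, a checkpoint kinase, had 13.0, 13.7 and 17.0 CPM in bleomycin skins, against 7.32, 9.12 and 9.99 CPM in PBS skins (log2 0.69 ± 0.11, adjusted p = 6.3e-07). Its counterpart Chek1 had 5.73, 8.64 and 12.8 CPM in bleomycin skins, against 3.26, 3.68 and 7.05 CPM in PBS skins (log2 0.96 ± 0.22, adjusted p = 2.6e-04). H2afx, the histone marked at breaks, rose (log2 1.13 ± 0.28, adjusted p = 5.4e-04), and Aptx, which removes blocked ends of DNA strands, fell (log2 -0.17 ± 0.06, adjusted p = 0.016). Blmh, the hydrolase that inactivates bleomycin, had 175, 237 and 353 CPM in bleomycin skins, against 103, 149 and 167 CPM in PBS skins (log2 0.76 ± 0.19, adjusted p = 7.9e-04). Every bleomycin skin lay above every PBS skin for Blmh, and PBS R8 was far below the rest.

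Other stress programmes had counts to be read beside the 25.5% of all genes that rose and the 20.7% that fell. Of 21 NRF2 targets 7 rose and 2 fell, and 4 rose without bleomycin R6. Nqo1, the quinone reductase, had 9.40, 13.7 and 14.8 CPM in bleomycin skins, against 5.73, 7.22 and 8.68 CPM in PBS skins (log2 0.84 ± 0.11, adjusted p = 5.6e-09), while Gstm1, a glutathione transferase, fell (log2 -0.96 ± 0.16, adjusted p = 1.6e-06). Of 17 ATF4 targets tested 6 rose and 2 fell, and 3 rose without PBS R8. They were led by Mthfd2, a mitochondrial folate enzyme, with 11.2, 15 and 16.4 CPM in bleomycin skins, against 5.02, 7.13 and 10.1 CPM in PBS skins (log2 0.97 ± 0.15, adjusted p = 4.2e-07). Vldlr, a lipoprotein receptor, and Atf5, a transcription factor, fell (log2 -0.76 ± 0.19 and -0.38 ± 0.10), and Asns, asparagine synthetase, rose (log2 0.34 ± 0.10). Among heat shock genes 5 of 12 rose and 1 fell, but only 2 or 3 rose when any library other than bleomycin R7, PBS R2 and PBS R7 was left out. Hspe1 and Hspa8, chaperones of mitochondria and cytosol, had log2 values of 0.62 ± 0.12 and 0.50 ± 0.11, and Hspa1a, the inducible HSP70, fell with overlapping groups (log2 -0.44 ± 0.13). Hypoxia and glycolysis genes had 6 of 17 higher and 5 lower, and 3 higher without bleomycin R7. The glucose transporter Slc2a1 rose (log2 0.75 ± 0.19, adjusted p = 0.001) and so did the enolase Eno1 (log2 0.60 ± 0.13), while Aldoa, the muscle aldolase, and Pfkfb3, a regulator of glycolysis, fell (log2 -0.57 ± 0.14 and -0.61 ± 0.16).

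Fibroblast markers fell. Of 18, 14 were lower and 2 higher, with a median log2 of -1.08, and 15 were lower without the hair-rich pair and 13 with the muscle term. Their summed level was 2319, 2981 and 3418 CPM in bleomycin skins, against 4702, 5893 and 6435 CPM in PBS skins, without overlap. Pdgfra, the platelet-derived growth factor receptor that marks fibroblasts, had 65.4, 84.7 and 99.8 CPM in bleomycin skins, against 213, 244 and 315 CPM in PBS skins (log2 -1.61 ± 0.15, adjusted p = 3.9e-14). Dpt, dermatopontin, had 136, 179.9 and 244 CPM in bleomycin skins, against 379, 451 and 532 CPM in PBS skins (log2 -1.28 ± 0.18, adjusted p = 3.7e-08). Clec3b, tetranectin, had 2.67, 4.68 and 9.45 CPM in bleomycin skins, against 18.8, 26.0 and 37.1 CPM in PBS skins (log2 -2.27 ± 0.32, adjusted p = 3.3e-08). These 3 did not overlap. Dpp4, a surface peptidase of upper dermal and fascial fibroblasts, fell (log2 -1.095 ± 0.17, adjusted p = 1.3e-07), with 6 of 7 bleomycin skins below all PBS skins. Crabp1, a retinoic acid carrier of dermal fibroblasts, went up, with 34.2, 37.5 and 40.7 CPM in bleomycin skins, against 11.8, 15.6 and 24.3 CPM in PBS skins (log2 1.24 ± 0.29, adjusted p = 2.7e-04). Ly6a, the surface protein Sca-1, which interferon also induces, rose with overlap (log2 0.58 ± 0.18, adjusted p = 0.006).

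**Figure D3:**
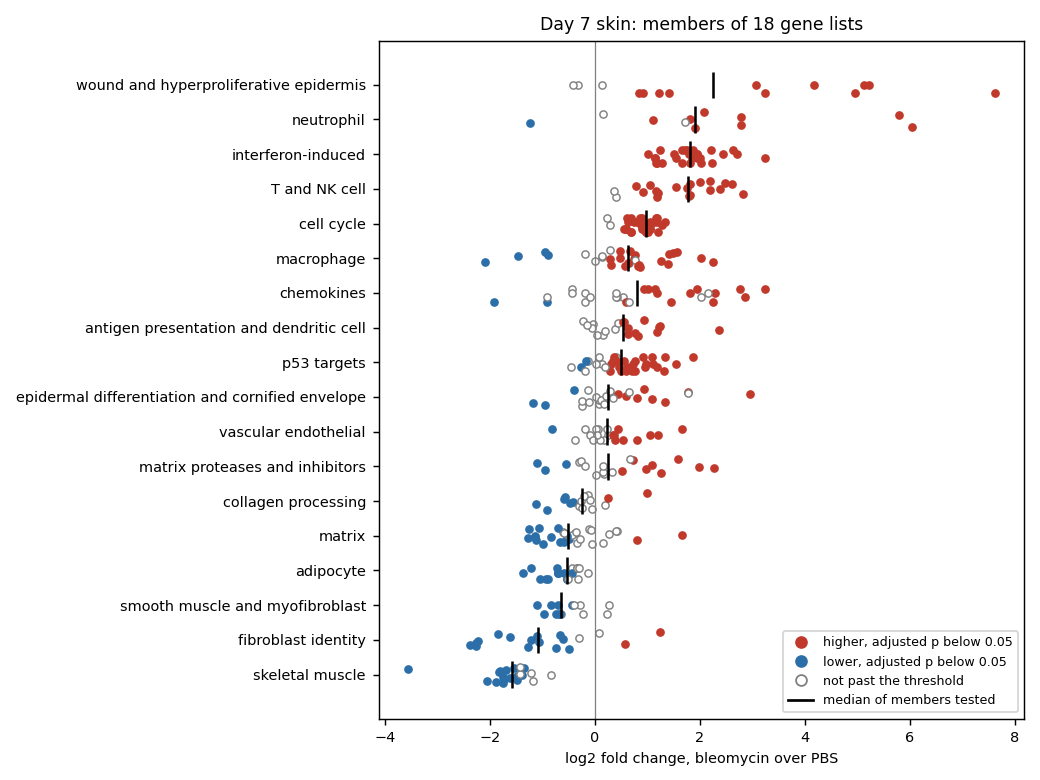
Log2 fold change of bleomycin minus PBS in day 7 skin for every tested member of selected lists (x axis, log2), with 1 row per list and filled points for genes called. All 28 interferon-induced genes lie to the right of 0, and 14 of 18 fibroblast markers are called to the left.

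Matrix genes were lower more often than higher. Of 30 genes 13 were lower and 2 higher, with a median log2 of -0.52. Without the hair-rich pair 18 were lower and 1 higher, and with the muscle term 8 and 1. Fn1, fibronectin, had 316, 533 and 649 CPM in bleomycin skins, against 996, 1096 and 1266 CPM in PBS skins (log2 -1.15 ± 0.24, adjusted p = 6.8e-05). Fbn1, fibrillin of elastic microfibrils, had 415, 745 and 867 CPM in bleomycin skins, against 1075, 1335 and 2138 CPM in PBS skins (log2 -1.06 ± 0.18, adjusted p = 1.2e-06). Dcn, decorin, a proteoglycan that binds collagen fibrils, had 803, 1083 and 1611 CPM in bleomycin skins, against 1957, 2208 and 2639 CPM in PBS skins (log2 -0.99 ± 0.19, adjusted p = 1.6e-05). The fibril collagen Col5a3 and the microfibril protein Mfap5 had log2 values of -1.25 ± 0.19 and -1.27 ± 0.25, and none of these 5 overlapped between the groups.

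The major collagens were lower on average with overlap. Col1a1, type I collagen, had 690.1, 972 and 1777 CPM in bleomycin skins, against 591, 1497 and 2288 CPM in PBS skins (log2 -0.61 ± 0.28, adjusted p = 0.062), which missed the threshold, while it passed without any 1 of bleomycin R3, PBS R1, PBS R5 and PBS R7. It also passed with DESeq2 (adjusted p = 0.046), limma voom (0.0098), the 2 groups alone (0.035) and a replicate block (0.038). Without the hair-rich pair its log2 was -0.87 (adjusted p = 0.013). Col3a1, type III collagen, had 3227, 4915 and 7387 CPM in bleomycin skins, against 4169.8, 7792 and 12866 CPM in PBS skins (log2 -0.67 ± 0.24, adjusted p = 0.019). That call was lost without PBS R2 (log2 -0.53, adjusted p = 0.071) and with the muscle term (log2 -0.53, adjusted p = 0.063). Among the matrix genes that rose, Tnc, tenascin-C of wounds, had 119, 232 and 358 CPM in bleomycin skins, against 34.7, 48.8 and 230.4 CPM in PBS skins (log2 1.65 ± 0.49, adjusted p = 0.0044), with PBS R8 inside the bleomycin range. Col12a1, a collagen on fibril surfaces, had a log2 of 0.80 ± 0.29, adjusted p = 0.021, and lost its call without bleomycin R3 (log2 0.45, adjusted p = 0.20) or PBS R6 (log2 0.71, adjusted p = 0.053), without the hair-rich pair (log2 0.46, adjusted p = 0.22) and with the muscle term (log2 0.67, adjusted p = 0.068). Postn, periostin, had 859, 1042 and 1687 CPM in bleomycin skins, against 695, 932 and 1393 CPM in PBS skins (log2 0.27 ± 0.24, adjusted p = 0.36).

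Of 16 collagen processing genes 6 were lower and 2 higher, but no more than 1 was higher when any 1 of 13 libraries was left out, and 0 without the hair-rich pair. Adamts2, the enzyme that trims procollagen, had 56.7, 90.9 and 112 CPM in bleomycin skins, against 121, 156 and 222 CPM in PBS skins (log2 -0.91 ± 0.20, adjusted p = 9.6e-05). Loxl1, a cross-linking oxidase of elastic fibres, and Pcolce, an enhancer of procollagen trimming, had log2 values of -1.13 ± 0.26 and -0.47 ± 0.13. Of 15 basement membrane genes 6 were lower and none higher, led by the linker protein Nid1 with 87.4, 142 and 191 CPM in bleomycin skins, against 203, 303 and 475 CPM in PBS skins (log2 -1.18 ± 0.16, adjusted p = 1.1e-08), and by the laminin chain Lamc1 (log2 -0.67 ± 0.10). Of 20 proteases and their inhibitors 8 were higher and 3 lower, beside 25.5% and 20.7% of all genes. Without the hair-rich pair 5 were higher and 3 lower, beside 3274 higher among all 15869 genes tested there, so that no lean is claimed. Without any 1 of bleomycin R1, R2 and R5 and PBS R4, R5 and R6, 4 or 5 were higher. Timp1, an inhibitor of matrix metalloproteinases, had 12.4, 15.5 and 27.9 CPM in bleomycin skins, against 3.15, 4.67 and 13.1 CPM in PBS skins (log2 1.59 ± 0.33, adjusted p = 6.7e-05), and PBS R8 was the highest PBS skin. Timp2, another inhibitor of that family, and Adamts5, an aggrecan-cutting protease, fell without overlap (log2 -0.94 ± 0.16 and -1.096 ± 0.14). Spp1, osteopontin of macrophages and wounds, had 11.3, 19.1 and 32.1 CPM in bleomycin skins, against 3.50, 4.39 and 9.60 CPM in PBS skins (log2 2.03 ± 0.55, adjusted p = 0.0016).

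TGF-beta ligands and targets gave no single direction, with 6 of 20 higher and 4 lower. Only 2 or 3 were higher without any 1 of bleomycin R1, R2 and R6 and PBS R4, R6 and R8, and 2 were lower without PBS R2. Skil, a feedback inhibitor that TGF-beta induces, had 116, 139.8 and 154 CPM in bleomycin skins, against 81.0, 87.2 and 109 CPM in PBS skins (log2 0.59 ± 0.12, adjusted p = 3.1e-05). Its relative Ski and the type II receptor Tgfbr2 fell (log2 -0.37 ± 0.10 and -0.54 ± 0.16). Ccn2, the connective tissue growth factor induced by TGF-beta, had 36.4, 54.1 and 64.9 CPM in bleomycin skins, against 49.9, 55.1 and 116 CPM in PBS skins (log2 -0.30 ± 0.23, adjusted p = 0.31). Acta2, the smooth muscle actin of myofibroblasts and vessel walls, had 77.0, 98.8 and 129 CPM in bleomycin skins, against 84.2, 127 and 149 CPM in PBS skins (log2 -0.23 ± 0.12, adjusted p = 0.1). It passed without any 1 of bleomycin R3, R4 and R5 and PBS R1, with a log2 of -0.31 at the most, without the hair-rich pair (log2 -0.31, adjusted p = 0.045), and with limma voom (adjusted p = 0.031) and limma-trend (adjusted p = 0.043). Among the 14 smooth muscle genes 8 fell and none rose. The myosin light chain kinase Mylk fell without overlap (log2 -0.70 ± 0.17, adjusted p = 4.6e-04), and the smooth muscle myosin Myh11 and the tropomyosin Tpm2, which skeletal muscle also makes, had log2 values of -0.68 ± 0.22 and -1.11 ± 0.28.

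Fat and muscle transcripts were lower. Of 21 adipocyte genes 13 fell and none rose, with a median log2 of -0.53, and their sum was 3556, 4281 and 5924 CPM in bleomycin skins, against 6454, 6729.6 and 8165 CPM in PBS skins. Slc2a4, the insulin-regulated glucose transporter of fat and muscle, had 5.34, 12.6 and 16.1 CPM in bleomycin skins, against 20.9, 29.1 and 40.0 CPM in PBS skins (log2 -1.36 ± 0.25, adjusted p = 5.6e-06). Lep, leptin, had 7.98, 17.0 and 23.9 CPM in bleomycin skins, against 29.7, 36.8 and 49.1 CPM in PBS skins (log2 -1.21 ± 0.29, adjusted p = 5.1e-04). Fasn, fatty acid synthase, and Lpl, lipoprotein lipase, had log2 values of -1.04 ± 0.25 and -0.70 ± 0.17. In the sebaceous gland list 4 of 15 fell and 1 rose. The lipid desaturases Scd3 and Scd1 had log2 values of -2.21 ± 0.42 and -0.83 ± 0.27, the melanocortin receptor Mc5r fell (log2 -0.75 ± 0.17), and Krt79, a keratin of the gland's duct, rose (log2 0.46 ± 0.14).

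Skeletal muscle, which lies in a thin layer under mouse skin, had the lowest median of all lists, at a log2 of -1.58, with 15 of 20 genes lower and none higher. Without bleomycin R6 6 were lower, without PBS R8 4, and with the muscle level itself as a term 2 were lower and 2 higher. That term was the mean level of this same list, so that the loss of its calls was largely fixed in advance. Ryr1, the calcium release channel, had 38.8, 92.8 and 132 CPM in bleomycin skins, against 182, 251 and 576 CPM in PBS skins (log2 -1.73 ± 0.53, adjusted p = 0.0054). Cacna1s, the voltage sensor that opens it, had a log2 of -1.88 ± 0.59, adjusted p = 0.0073, and neither overlapped. Myh2, a fast myosin heavy chain, had 0.889, 6.10 and 21.0 CPM in bleomycin skins, against 1.58, 34.3 and 322 CPM in PBS skins (log2 -3.56 ± 0.94, adjusted p = 0.0013), and its level varied so widely in PBS skins that only bleomycin R3 lay below all of them. With the muscle term its log2 was -1.38 (adjusted p = 0.13). Whether biopsies took different amounts of muscle was not tested.

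Of 21 vascular endothelial genes 9 rose and 1 fell, with a median log2 of 0.22. Selp, P-selectin, which slows leukocytes on the vessel wall, had 3.11, 5.44 and 10.4 CPM in bleomycin skins, against 1.45, 1.98 and 2.47 CPM in PBS skins (log2 1.65 ± 0.27, adjusted p = 5.4e-07). Vcam1 and Icam1, which hold them there, had log2 values of 1.201 ± 0.20 and 0.79 ± 0.15. Tek, the angiopoietin receptor of quiet vessels, had 21.3, 23.6 and 30.3 CPM in bleomycin skins, against 30.7, 39.8 and 57.3 CPM in PBS skins (log2 -0.81 ± 0.15, adjusted p = 7.5e-06). These 4 genes were apart between the groups. In the lymphatic list 2 of 9 rose and 2 fell, counts that dropped to 1 without bleomycin R6 or PBS R2, as did the rises without bleomycin R1 and the falls without PBS R3. Pdpn, podoplanin, which keratinocytes and fibroblasts also make, rose (log2 0.74 ± 0.14, adjusted p = 9.8e-06), and Lyve1, a hyaluronan receptor of lymphatics and resident macrophages, fell (log2 -0.90 ± 0.28, adjusted p = 0.0072). Of 12 Schwann cell genes 3 rose and 2 fell, with the transcription factor Sox10 higher (log2 0.56 ± 0.15) and the neurotrophin receptor Ngfr lower (log2 -0.53 ± 0.16).

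Melanocyte and hair lists turned on the hair-rich pair. Of 10 melanocyte genes 5 rose and 1 fell, 9 rose and 1 fell without that pair, and 1 rose and 1 fell with the muscle term. Without bleomycin R3 2 rose, and 3 rose without any single PBS skin other than R5. Dct, an enzyme of melanin synthesis, had 52.98, 59.3 and 215 CPM in bleomycin skins, against 10.4, 13.9 and 87.7 CPM in PBS skins (log2 1.68 ± 0.51, adjusted p = 0.0051). Tyrp1, its relative, had 38.03, 44.8 and 154 CPM in bleomycin skins, against 3.90, 6.82 and 62.5 CPM in PBS skins (log2 2.01 ± 0.62, adjusted p = 0.0059, and 1.26 with the muscle term, adjusted p = 0.061). For both genes PBS R5 lay above 6 of the 7 bleomycin skins, and every bleomycin skin lay above the other 7 PBS skins. Mitf, the master regulator of the lineage, which other cells also use, fell (log2 -0.37 ± 0.13, adjusted p = 0.021). Of 26 hair keratin genes tested 0 were called by edgeR, by DESeq2 or by limma voom, and 0 had an unadjusted p below 0.05. Without bleomycin R3 24 of them were called lower, without PBS R5 21 were called higher, without both 0 were called, and with the muscle term 1 was called lower. Of 21 hair follicle regulators 6 fell and 1 rose, 10 fell without the hair-rich pair, and 11 fell without bleomycin R3 alone. Fgf18, a growth factor of resting follicles, had 0.278, 1.29 and 1.86 CPM in bleomycin skins, against 3.12, 4.44 and 7.91 CPM in PBS skins (log2 -2.01 ± 0.38, adjusted p = 1.2e-05). Fgf7 and Bmp4, signals of the dermal papilla and dermis, fell without overlap (log2 -1.12 ± 0.18 and -1.04 ± 0.18), and Sostdc1, an inhibitor of BMP and Wnt, rose (log2 0.59 ± 0.15).

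Clock genes leaned down, with 7 of 18 lower and 3 higher, and 1 higher without any single library other than bleomycin R1 and R4 and PBS R5 and R8. Npas2, a partner of BMAL1, had 1.22, 1.52 and 2.13 CPM in bleomycin skins, against 3.19, 4.44 and 5.94 CPM in PBS skins (log2 -1.48 ± 0.27, adjusted p = 7.5e-06). Hlf and Nr1d1, outputs of the clock, had log2 values of -1.02 ± 0.22 and -0.99 ± 0.26, with no overlap, and Cry2, a repressor, of -0.61 ± 0.12. Bhlhe40, a repressor that stress induces, rose (log2 0.55 ± 0.15). The hours of tissue collection are not given in the labels. Of 12 glucocorticoid-induced genes 4 fell and 2 rose, and 1 rose without bleomycin R3. Klf9, a transcription factor induced by the hormone, had 48.6, 71.5 and 97.6 CPM in bleomycin skins, against 115, 121 and 182 CPM in PBS skins (log2 -0.88 ± 0.21, adjusted p = 4.0e-04), and Pdk4, a brake on glucose oxidation that muscle makes in quantity, fell (log2 -1.24 ± 0.39, adjusted p = 0.0071, and -0.64 with the muscle term, adjusted p = 0.079). Lcn2, an iron-binding protein of inflamed epithelium and neutrophils, had 1.22, 5.97 and 14.7 CPM in bleomycin skins, against 1.07, 1.47 and 3.62 CPM in PBS skins (log2 2.07 ± 0.38, adjusted p = 8.2e-06).

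Among the 10 largest falls were secreted and stromal genes. Plac9a, a small secreted protein with a near-identical copy, had 0.686, 1.000 and 2.05 CPM in bleomycin skins, against 1.37, 16.0 and 43.1 CPM in PBS skins (log2 -4.04 ± 0.79, adjusted p = 2.2e-05). PBS R5 was as low as the bleomycin skins. Hmcn2, a hemicentin of the matrix, had 2.89, 9.81 and 15.2 CPM in bleomycin skins, against 48.8, 78.3 and 103 CPM in PBS skins (log2 -3.25 ± 0.57, adjusted p = 2.8e-06). Sfrp2, a Wnt modulator of dermal fibroblasts, had 1.67, 9.24 and 10.7 CPM in bleomycin skins, against 10.6, 34.3 and 80.1 CPM in PBS skins (log2 -2.37 ± 0.44, adjusted p = 1.0e-05). Cilp, a matrix protein that binds TGF-beta, and Angptl1, a secreted angiopoietin relative, had log2 values of -2.72 ± 0.35 and -2.54 ± 0.39. Akr1c14, a steroid reductase, Scg3, a granule protein of secretory cells, Carns1, the carnosine synthase of muscle and nerve, and Mstn, the muscle growth inhibitor myostatin, had log2 values of -2.72 ± 0.40, -2.56 ± 0.42, -3.02 ± 0.41 and -3.09 ± 0.69. For these 6 and Hmcn2 the groups were apart.

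In skin of day 14, which shares no library with day 7, 9427 of 15825 genes were called (59.6%). Of these, 4981 were higher (31.5%) and 4446 lower (28.1%). Of the genes that rose at day 7, 83.8% also rose at day 14, and of those that fell, 85.4% also fell. The difference of the effects, day 14 minus day 7, was called for 338 genes (2.14%), 144 of them higher (0.91%) and 194 lower (1.23%). Without the hair-rich pair of day 7 1.17% of genes were called, and each difference named was among the calls.

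Muscle regeneration gave the widest gap between the days. At day 14 11 of 13 genes were higher and at day 7 none, and 7 of 13 differences were called, all higher at day 14. The gap turned on PBS R8: without it 7 of 13 were higher at day 7 and 1 of 13 differences was called, with a median difference of 1.34 on the log2 scale against 2.91. With the muscle term 8 of 13 were higher at day 7. Myh8, the myosin of newborn and regenerating fibres, had 4.49, 54.2 and 158 CPM in bleomycin skins at day 14, against 1.06, 2.83 and 9.18 CPM in PBS skins. At day 7 it had 1.33, 5.94 and 36.4 CPM in bleomycin skins, against 1.72, 4.00 and 216 CPM in PBS skins, with PBS R8 highest (difference of log2 5.15 ± 1.099, adjusted p = 0.0045). Without PBS R8 this difference was 2.49 and its call was lost (adjusted p = 0.14). Casq2, a calcium store protein of slow and developing muscle, differed too (log2 2.34 ± 0.33 at day 14 and -0.27 ± 0.33 at day 7, difference 2.62 ± 0.47, adjusted p = 8.6e-04). Without PBS R8, at 32.1 CPM far above the other PBS skins, its log2 was 0.46 at day 7 and the difference 1.87 (adjusted p = 0.0063). Atp2a2, the calcium pump of slow muscle and other cells, had a difference of 0.40 ± 0.08, adjusted p = 0.0013. Cxcl2, a neutrophil attractant, was called at day 14 but not at day 7, with 0.874, 30.4 and 447 CPM in bleomycin skins at day 14, against 0.0602, 0.168 and 0.894 CPM in PBS skins (difference 7.20 ± 1.36, adjusted p = 0.0012). At day 7 it had 0.389, 0.661 and 1.72 CPM in bleomycin skins, against 0, 0.349 and 1.71 CPM in PBS skins.

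Other differences were not all of one kind, and Clcn5 had no call at day 7. Tpp2, a cytosolic peptidase, had a log2 of 0.96 ± 0.06 at day 14 and 0.38 ± 0.06 at day 7 (difference 0.58 ± 0.09, adjusted p = 3.6e-05). Clcn5, an endosomal chloride exchanger, had 0.49 ± 0.07 and -0.05 ± 0.07 (difference 0.54 ± 0.10, adjusted p = 9.0e-04), and Gsta1, a glutathione transferase, 2.45 ± 0.25 and 0.81 ± 0.25 (difference 1.64 ± 0.35, adjusted p = 0.0043). Of 18 fibroblast genes 3 differences were called lower at day 14, and of 30 matrix genes 1. Clec3b was at -4.39 ± 0.35 and -2.27 ± 0.32 (difference -2.13 ± 0.45, adjusted p = 0.0043) and Dcn at -2.11 ± 0.19 and -0.99 ± 0.19 (difference -1.11 ± 0.26, adjusted p = 0.01). Bmp4 had -2.39 ± 0.18 and -1.04 ± 0.18 (difference -1.35 ± 0.25, adjusted p = 9.3e-04), Smim1, a small membrane protein, -1.71 ± 0.13 and -0.70 ± 0.13 (difference -1.02 ± 0.18, adjusted p = 8.6e-04), and Fndc4, a secreted fibronectin-domain protein, -1.69 ± 0.12 and -0.76 ± 0.12 (difference -0.93 ± 0.17, adjusted p = 9.0e-04). The gene models Gm10719, Gm10721 and Gm10722, which have near-identical copies and are uncertain, had differences of -2.88 ± 0.51, adjusted p = 8.6e-04, of -3.60 ± 0.63, adjusted p = 8.6e-04 and of -4.27 ± 0.77, adjusted p = 8.6e-04. At day 7 Gm10719 ran from 8.94 to 50.9 CPM in bleomycin skins and from 2.86 to 14.8 CPM in PBS skins. Gm10721 ran from 1.83 to 28.0 CPM and from 0.695 to 3.31 CPM, and Gm10722 from 0.152 to 4.08 CPM and from 0 to 0.446 CPM.

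**Figure D4:**
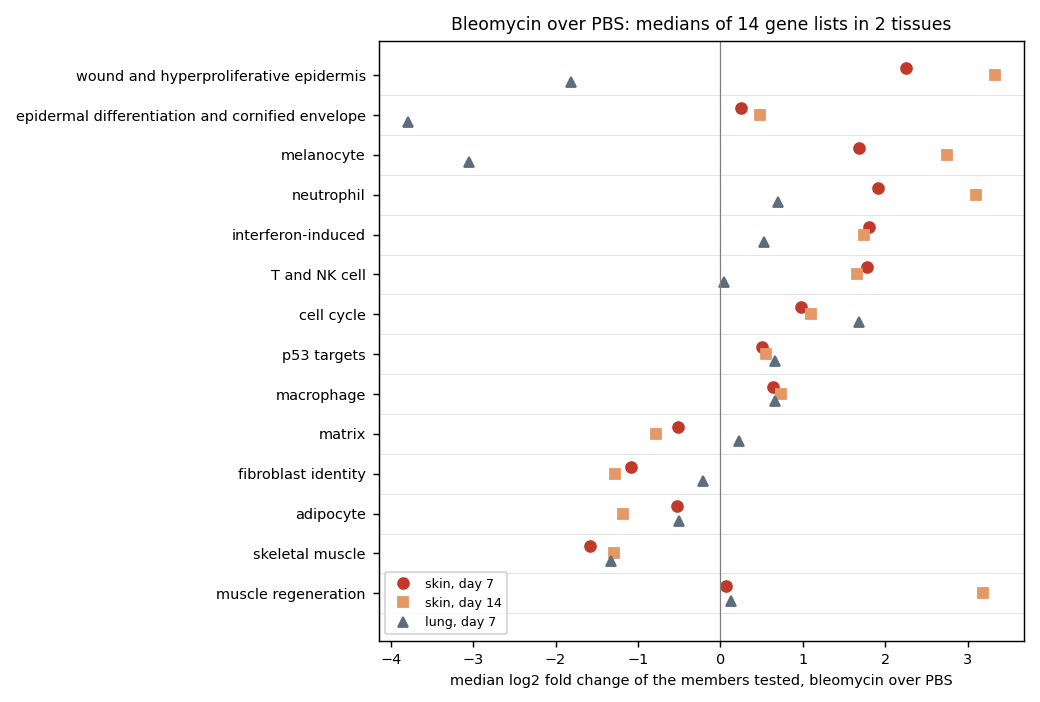
Median log2 fold change of bleomycin minus PBS over the tested members of 14 gene lists (x axis, log2), in skin of day 7, skin of day 14 and lung of day 7. The muscle regeneration list is at 0.07 in skin of day 7 and 3.18 in skin of day 14, and the part of the hair and epidermal transcripts of PBS lungs R5 and R6 in the lung medians was not tested.

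Lung of the same day and dose showed a partly different effect. In lung 4738 of 16585 genes were called (28.6%), 12.7% higher and 15.9% lower. Of the genes that rose in skin at day 7, 31.2% also rose in lung, and of those that fell 36.0% also fell. The skin effect minus the lung effect was called for 2754 genes (16.6%), 1430 higher (8.62%) and 1324 lower (7.98%) in skin. Some lungs were unusual, since PBS R5 and R6 held hair and epidermal transcripts and the 10 leading genes took at least 24.4% of counts in bleomycin R2 and R6. Each difference between skin and lung named kept its call without these lungs and the hair-rich skins.

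Interferon and lymphocyte genes had the larger effect in skin. Of 28 interferon-induced genes 22 differences were called higher in skin and none lower, and of 21 T and NK cell genes tested in both tissues 15 and none. Ifi44 had a log2 of 2.63 ± 0.33 in skin and 0.33 ± 0.25 in lung (difference 2.26 ± 0.36, adjusted p = 8.4e-07). Adar, an interferon-induced editor of double-stranded RNA, had 1.04 ± 0.11 and -0.08 ± 0.09 (difference 1.08 ± 0.13, adjusted p = 5.9e-10). Gzmb had 2.82 ± 0.37 in skin and -0.33 ± 0.28 in lung (difference 3.12 ± 0.41, adjusted p = 2.1e-09), Cd5 1.79 ± 0.18 and 0.07 ± 0.18 (difference 1.68 ± 0.26, adjusted p = 3.0e-07), and Cd22 3.52 ± 0.46 and -0.04 ± 0.28 (difference 3.53 ± 0.47, adjusted p = 3.0e-09). Ly6c2, a monocyte surface protein with near-identical relatives, had 30.2, 75.7 and 114 CPM in bleomycin skins, against 2.09, 4.33 and 14.9 CPM in PBS skins. In lung it had 11.3, 14.9 and 17.7 CPM with bleomycin, against 9.34, 12.7 and 16.5 CPM with PBS (difference 3.52 ± 0.43, adjusted p = 3.5e-10). Ccr7 and Ccl5 differed in the same sense (differences 2.26 ± 0.34, adjusted p = 1.6e-07 and 2.40 ± 0.44, adjusted p = 1.3e-05), as did S100a8 (5.26 ± 1.06, adjusted p = 7.7e-05). Traf1, an adaptor of TNF receptors, Bcl2l11, the death-promoting protein Bim, and Gria3, a glutamate receptor subunit, had differences of 1.63 ± 0.17, adjusted p = 9.5e-14, of 1.13 ± 0.14, adjusted p = 1.8e-10 and of 1.86 ± 0.22, adjusted p = 1.8e-10.

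Matrix, fibroblast and p53 genes had the lower effect in skin. Of 30 matrix genes 13 differences were called lower in skin and none higher, and of 18 fibroblast genes 11 and 2. Fn1 had a log2 of -1.15 ± 0.24 in skin and 0.77 ± 0.27 in lung (difference -1.96 ± 0.38, adjusted p = 4.8e-05). In lung it had 460.5, 618 and 813 CPM with bleomycin, against 316, 365 and 460.2 CPM with PBS. Col3a1 had -0.67 ± 0.24 and 0.71 ± 0.25 (difference -1.41 ± 0.35, adjusted p = 0.0019), Fbn1 -1.06 ± 0.18 and 0.37 ± 0.17 (difference -1.47 ± 0.25, adjusted p = 2.7e-06), and Dpt -1.28 ± 0.18 and 0.42 ± 0.16 (difference -1.74 ± 0.22, adjusted p = 1.3e-09). Pdgfra fell in both tissues and further in skin (-1.61 ± 0.15 and -0.63 ± 0.13, difference -1.01 ± 0.19, adjusted p = 1.7e-05). Of 35 p53 targets 12 differences were lower in skin and 2 higher. Cdkn1a had 0.95 ± 0.09 in skin and 1.99 ± 0.14 in lung (difference -1.09 ± 0.20, adjusted p = 1.2e-05), and Gdf15 1.34 ± 0.46 and 3.25 ± 0.38 (difference -1.94 ± 0.52, adjusted p = 0.004). Pmaip1 went the other way (1.55 ± 0.14 and 0.42 ± 0.12, difference 1.09 ± 0.17, adjusted p = 6.1e-07). All 35 cell cycle genes were higher in lung, with a median log2 of 1.68, and 6 differences were lower in skin.

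Of 30 macrophage genes 5 differences were called lower in skin and 1 higher. Retnla had a log2 of -2.09 ± 0.59 in skin and 3.16 ± 0.52 in lung (difference -5.30 ± 0.73, adjusted p = 1.2e-08), with 163, 322 and 568 CPM in bleomycin lungs, against 28.5, 37.4 and 48.0 CPM in PBS lungs. Cd163 had -1.47 ± 0.26 in skin and 0.34 ± 0.22 in lung (difference -1.85 ± 0.32, adjusted p = 3.2e-06). Outside that list, Arhgap20, a GTPase-activating protein, Prrg3, a vitamin K-dependent membrane protein, and Slit2, a guidance factor of stroma, had differences of -1.65 ± 0.21, adjusted p = 9.8e-10, of -1.502 ± 0.19, adjusted p = 6.3e-10 and of -1.11 ± 0.14, adjusted p = 1.3e-09. Fer1l6, a ferlin, had -1.67 ± 0.37 in skin and 2.34 ± 0.36 in lung (difference -4.05 ± 0.53, adjusted p = 3.0e-09).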

How the data were processed

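Per the submitters' processing notes, the authors used RSEM on GRCm38 to make the deposited expected counts per gene. The deposited log2 CPM values of a subset of genes were made with edgeR and adjusted for plate, by the same notes. For the aligner and all versions, nothing was given in the sources used here. The count table held 22095 gene IDs, 21852 of them paired with a symbol. Expected counts were rounded, filtered with filterByExpr by group and scaled by TMM.

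Testing used edgeR 4.0.16 (quasi-likelihood F test) in R 4.3.3, over the 93 skin libraries of 12 groups with plate as a term, so that all groups shared estimates of spread. Skin minus lung used the 93 libraries of each tissue and a plate term per tissue. Skin and lung libraries may come from the same mice, which the labels do not match, and were treated as independent. P-values were adjusted by Benjamini-Hochberg. SE was approximated as the size of the log2 fold change divided by the root of F. In simulated data of 15760 genes, 91 of 100 genes set to a 2-fold change at day 7 were called by edgeR, as were 68 of 100 set to 1.5-fold, with 10 false calls. No other genes were changed, and no plate effects or outlying libraries were simulated, so that error in the real data may be larger.

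Members and gene lists were chosen with earlier results of these data known, so that list counts describe and support nothing. Lists named after cell types hold marker transcripts. Named genes were the 10 largest rises and falls among called genes whose mean log2 CPM reached 1, clone and model names left out, 12 anchors, and per list up to 4 members with the smallest p and 2 called the other way. For differences of effects they were the 5 smallest p per direction. Not all are reported here, and genes that single settings decided were mostly left out after their values were seen.

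Alternatives were RLE size factors, no filter, DESeq2 1.42.0, limma voom and limma-trend (limma 3.58.1; trend on the deposited log2 CPM), no plate term, plate sections, the compared groups alone, a replicate block, each plate alone and each library left out. Leaving out the hair-rich pair, or the hair-rich libraries of both tissues, adding the muscle level, and leaving out each day 7 skin for the difference between the days were chosen after seeing the data.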

Additional observations from a re-analysis of the deposited data

Results flagged for a closer look

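A library is listed here where its gap to the nearest other library of its group was large against the range of the group, by Dixon's 95% critical value. Such a gap was found in 42 of 416 groups tested, and chance gives about 1 in 20. PBS R8 was involved 11 times, bleomycin R3 8 times, and PBS R2 and R5 7 times each.

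The hair-rich skins held most of the gaps in epithelial and pigment genes. Hair keratins summed to 11472 CPM in bleomycin R3 and 9981 CPM in PBS R5, and melanocyte genes to 711 and 336 CPM. Dct was at 215 and 87.7 CPM and Tyrp1 at 154 and 62.5 CPM in the same pair. In bleomycin R3, Col12a1 was high at 729 CPM, while Irf9 at 82.1 CPM, Ccr2 at 135 CPM and Icam1 at 40.4 CPM were low. In PBS R5, the cell cycle sum of 1648 CPM and Mki67 at 436 CPM were high, and Hmcn2 at 48.8 CPM was apart.

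PBS R8 stood out in muscle genes, with a muscle regeneration sum of 474 CPM, Myh8 at 216 CPM and Casq2 at 32.1 CPM. It was also high for Col12a1 (411 CPM), Ccn2 (116 CPM), Klf9 (182 CPM) and Fer1l6 (4.94 CPM). It was low for Krt14 (946 CPM), Sfn (119.8 CPM) and Blmh (103 CPM), and Gm10722 was at 0 CPM. PBS R2 was high for the interferon-induced genes Adar (97.2 CPM), Bst2 (61.9 CPM) and Ly6a (403 CPM), and for Ccl2 (38.2 CPM), Spp1 (9.60 CPM), Pcolce (139 CPM) and Smim1 (13.8 CPM).

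Single gaps were found elsewhere. Muscle regeneration genes summed to 178 CPM in bleomycin R5. Hspa1a was at 114 CPM in bleomycin R1, Dpp4 at 103 CPM and Tek at 30.3 CPM in bleomycin R4, and Bax at 24.2 CPM and Nqo1 at 9.40 CPM in bleomycin R7. In PBS R7 adipocyte genes summed to 8165 CPM, Stfa3 was at 26.1 CPM and Crabp1 at 24.3 CPM.

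The effect differed between the days for 338 genes by the test of the difference in edgeR. On the log2 scale, day 14 minus day 7, the genes named had differences of 7.20 for Cxcl2, 5.15 for Myh8, 2.62 for Casq2, 1.64 for Gsta1, 0.58 for Tpp2, 0.54 for Clcn5 and 0.40 for Atp2a2. Differences below 0 were -4.27 for Gm10722, -3.60 for Gm10721, -2.88 for Gm10719, -2.13 for Clec3b, -1.35 for Bmp4, -1.11 for Dcn, -1.02 for Smim1 and -0.93 for Fndc4.

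The effect differed between skin and lung for 2754 genes. Skin minus lung, the differences above 0 were 5.26 for S100a8, 3.53 for Cd22, 3.52 for Ly6c2, 3.12 for Gzmb, 2.40 for Ccl5, 2.26 for Ifi44, 2.26 for Ccr7, 1.86 for Gria3, 1.68 for Cd5, 1.63 for Traf1, 1.13 for Bcl2l11, 1.09 for Pmaip1 and 1.08 for Adar. Those below 0 were -5.30 for Retnla, -4.05 for Fer1l6, -1.96 for Fn1, -1.94 for Gdf15, -1.85 for Cd163, -1.74 for Dpt, -1.65 for Arhgap20, -1.50 for Prrg3, -1.47 for Fbn1, -1.41 for Col3a1, -1.11 for Slit2, -1.09 for Cdkn1a and -1.01 for Pdgfra.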

How the results depend on the processing

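The count of 7306 genes called at day 7 lay between 6417 and 7313 without each of the 15 libraries in turn, and within 1.5 times under every other alternative except plate 1 alone, which holds fewer skins and called 2601 genes. Of the named genes called at day 7, all but 3 kept their call without each library in turn (183 genes), 177 kept it under every alternative other than plate 1 or plate 2 alone and 119 with those included, counts that leaving out unstable genes raised. No called gene that is named changed sign. The balance of calls did turn. Falls outnumbered rises at day 7 with limma-trend (3607 rises, 3822 falls), a replicate block (3638, 3694), without the hair-rich pair (3274, 3706) and without any 1 of 11 libraries, as without bleomycin R3 (3318, 3863), against 4035 and 3271. Skin minus lung had 2085 higher and 2559 lower with limma voom and 1395 and 1829 with a block, against 1430 and 1324. It had 1750 and 2058 with the 4 groups alone, and 926 and 1103 without bleomycin lungs R2 and R6 and the hair-rich libraries. Day 14 minus day 7 had 144 higher and 194 lower, but 264 and 254 with DESeq2 and 460 and 448 with the 4 groups alone. It had 329 and 327 with a block, and 147 and 142 without bleomycin R1. Beside the calls given above, with the muscle term those of Sfn, Mrgprb2 and Xpc were lost (adjusted p = 0.060, 0.083 and 0.056). Gdf15 was lost with the 2 groups alone (adjusted p = 0.087), and Myh2 with limma voom (adjusted p = 0.21).

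The 338 differences between the days were 2.14% of genes tested. The share became 3.27% with DESeq2, 14.5% with limma voom, 1.12% without a plate term, 1.29% without a filter, 5.95% with the 4 groups alone and 1.17% without the hair-rich pair, and the cause was not tested. It lay between 0.901% and 3.56% without each day 7 skin in turn, lowest without bleomycin R4 and highest without bleomycin R6, and Myh8 lost its call without PBS R8. With limma voom Cxcl2 lost its difference. The 2754 differences between tissues became 4644 with limma voom.

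The labels do not say whether replicate numbers pair the samples. Deviations of same-numbered bleomycin and PBS skins correlated between -0.23 and 0.37, not all above 0.1, and 2 of 7 numbers matched best with themselves. So few pairs cannot exclude a pairing, and skin was not compared with lung in this way. With a replicate block 7332 genes were called at day 7 and 4.3% of genes as differences between the days, where Myh8 and Cxcl2 lost their calls, and Gdf15 lost its call at day 7 and in the comparison of tissues. Depth limits genes near 0 CPM, such as Il24 and Sprr2d.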
